A study of Mus musculus with 12 samples.

Results

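Arginine enters a cell through carriers, can be rebuilt inside it from citrulline, and can be hydrolysed to urea and ornithine, from which proline, glutamate and the polyamines are made. The genes described here are 8 members of this route, out of 53801 genes in the count table, chosen by name. They are the carriers Slc7a1 and Slc7a7, the enzymes of arginine synthesis Ass1 and Asl, and Oat, Odc1, Srm and Sat1 downstream of ornithine. All 8 were found by their Ensembl identifiers, had at least 1 count in every library and passed the filter on low counts in every comparison. The cells were eosinophils of the mouse, purified from bone marrow and from blood by depletion of other leukocytes, with 12 libraries in 4 groups of 3. Atg5-knockout mice were Atg5 flox/flox and carried eoCre, a Cre recombinase driven by the eosinophil peroxidase gene Epx, and the Il5 transgene Tg(Cd3d-Il5)NJ.1638Nal. Control mice carried eoCre and the same transgene without floxed Atg5, so that every animal overexpressed Il5 from T cells and carried eoCre in the heterozygous state. The design text of the series names 3 mice of each genotype as the source of both tissues. Ages and sexes of these mice are not given in the sources used here.

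Ornithine has competing fates. Ornithine aminotransferase (Oat) leads towards proline and glutamate, and ornithine decarboxylase (Odc1) makes putrescine, which spermidine synthase (Srm) converts to spermidine. Sat1 encodes the acetyltransferase that marks spermidine and spermine for export or oxidation. The pair of Ass1 and Asl rebuilds arginine from citrulline and aspartate, and in myeloid cells nitric oxide synthase draws on the same arginine.

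The summed gene counts of a library ran from 18885052 to 30270166, and values below are CPM, counts divided by library size with TMM factors over the 12 libraries. No pair of replicates was close enough to be the same library deposited again (chi-square per degree of freedom of at least 16.9). Atg5 lay between 30.6 and 33.9 CPM in Atg5-knockout and between 40.5 and 45.4 CPM in control bone marrow libraries (log2 fold change -0.44, adjusted p = 0.157). In blood the ranges were 36.6 to 52.4 and 40.1 to 58.7 CPM and overlapped. Since reads of every Atg5 exon are added up, a deletion within the gene cannot be checked from these values. The study itself measured Atg5 mRNA by qPCR and ATG5 protein by immunoblot in eosinophils of both tissues and genotypes. All 10 eosinophil marker genes had counts in every library. The blood libraries numbered 1 stood apart in both genotypes, with the lowest eosinophil marker share of their group (2.24% in control and 1.8% in Atg5-knockout, against 2.73 to 4.05% in the other blood libraries) and the highest B cell share (0.103 and 0.207%, against at most 0.0380%). Control blood library 1 also held 14.6% of its counts on 10 red cell genes, against at most 1.42% in the other blood libraries. For the members called between tissues the values without them are also given.

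The members differed widely in level, which was compared per exon length as RPKM, the CPM divided by the exon length in kilobases that the count table gives. In control bone marrow eosinophils the highest was Sat1, at 95.9 ± 10.8 RPKM (SD, n = 3), followed by Srm at 40.4 ± 3.13, Oat at 30.6 ± 5.94, Odc1 at 19.0 ± 1.27 and Ass1 at 17.7 ± 3.31 RPKM. Asl had 7.01 ± 0.832, Slc7a1 3.07 ± 0.840 and Slc7a7 1.14 ± 0.279 RPKM. Along this order the libraries of Srm and Oat and of Odc1 and Ass1 overlapped, and the other neighbours in the order were apart. In Atg5-knockout bone marrow the order was the same apart from Ass1, which at 22.1 ± 2.93 RPKM lay just above Odc1 (20.4 ± 1.63) with overlapping libraries.

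In control blood eosinophils Sat1 again led, at 187 ± 34.7 RPKM, before Oat (26.0 ± 4.69), Odc1 (14.5 ± 4.48), Srm (10.6 ± 3.57), Asl (8.97 ± 2.36) and Ass1 (5.79 ± 3.86). The libraries of Odc1, Srm, Asl and Ass1 overlapped from each neighbour to the next. In Atg5-knockout blood Sat1 (197 ± 40.1) and Oat (21.7 ± 2.43) again stood apart from the members below them, and from Odc1 (11.2 ± 1.65) down to Slc7a7 (1.60 ± 0.994) each member overlapped with the next. Among the 14712 genes that passed the filter over 12 libraries, the level of Sat1 per length stood above at least 96.2% of genes in all 4 groups.

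**Figure D1:**
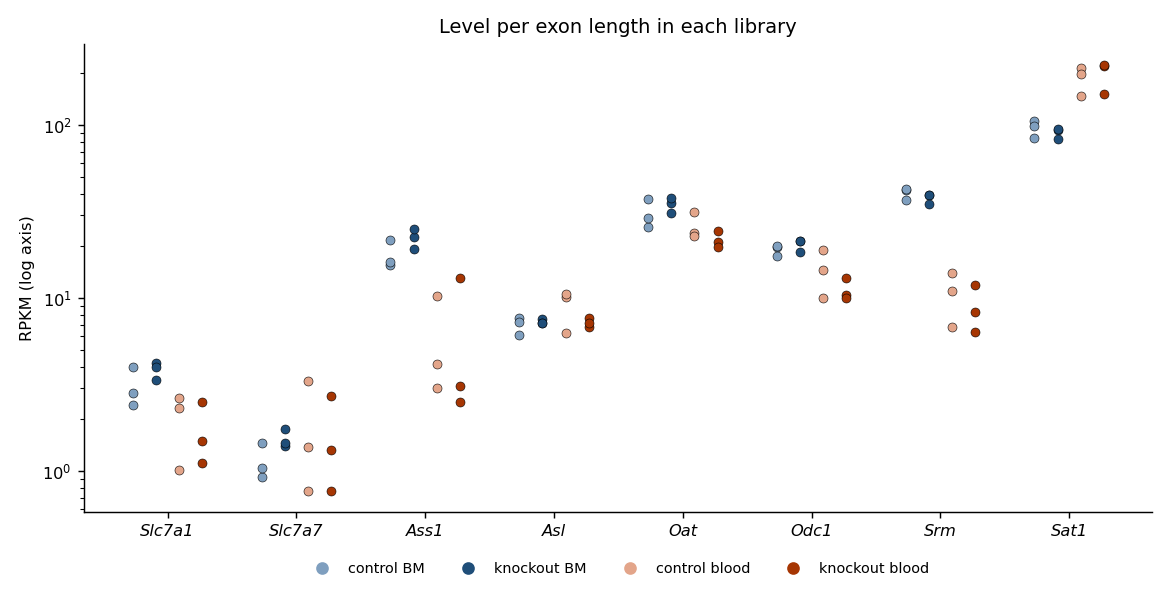
Level of each of the 8 genes per exon length in every library, in RPKM on a log axis, with 1 point per library and colours for the 4 groups (BM, bone marrow). Sat1 lies between 82.9 and 221 RPKM and above the other 7 genes in all 12 libraries, and Slc7a7 lies between 0.770 and 3.29 RPKM.

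**Figure D2:**
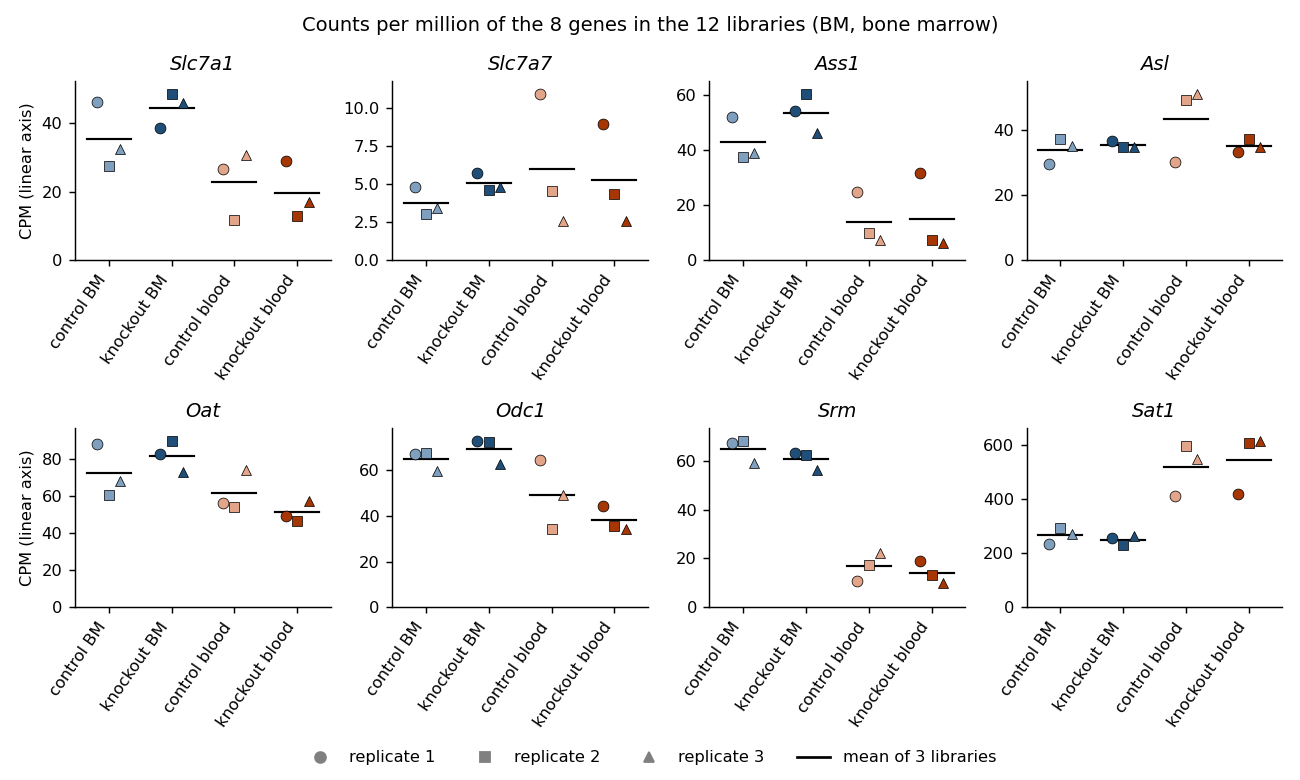
CPM of the 8 genes in each of the 12 libraries on linear axes that start at 0, with a marker shape for each replicate number and a line at the mean of 3 libraries. The genotypes overlap within each tissue, Srm and Ass1 are lower and Sat1 is higher in blood in both genotypes, and the blood libraries numbered 1 are the highest of their group for Ass1, Odc1 and Slc7a7 in control and for Ass1, Odc1, Slc7a7, Slc7a1 and Srm in Atg5-knockout.

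The comparison of Atg5-knockout with control eosinophils asks whether loss of Atg5, a gene needed for autophagy, moved these genes. In bone marrow edgeR's quasi-likelihood test, with Benjamini-Hochberg adjustment over all genes, called 0 of the 8 members at an adjusted p under 0.05, where 0.145% of all tested genes were called higher and 0.203% lower. At an unadjusted p under 0.05 there were 0 members as well, with 601 higher and 732 lower genes in all (9.67% of those tested). DESeq2 called 0 members, with 59 higher and 133 lower genes in all. The median log2 fold change of the 8 was 0.11, beside 0.00 over all genes. The carrier genes had 0.29 (Slc7a1, adjusted p = 0.610) and 0.40 (Slc7a7, adjusted p = 0.606), and the genes of arginine synthesis 0.29 (Ass1, adjusted p = 0.541) and 0.03 (Asl, adjusted p = 0.963). Among the genes that use ornithine, Oat had 0.15 and Odc1 0.07. Srm and Sat1 both had -0.12. In all 8 the libraries of the genotypes overlapped, and the 95% intervals ran between -0.37 and 0.87, so that a change of 1 log2 unit in either direction was outside the interval of each.

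In blood edgeR's test also called 0 of the 8 members, where 0.0371% of all tested genes were called higher and 0% lower. At an unadjusted p under 0.05 there were 0 members, with 148 higher and 199 lower genes in all, and DESeq2 called 0 members, with 15 higher and 8 lower genes in all. The members had log2 fold changes from -0.36 (Odc1) to 0.12 (Ass1), with a median of -0.22 beside 0.01 over all genes, each with an adjusted p of 1, and their libraries overlapped. Same-numbered blood libraries deviated together, and with the replicate number as a block the members' adjusted p ran from 0.707 (Odc1) to 0.9505 (Ass1), again with 0 calls. By replicate number, Oat was lower and Sat1 higher in Atg5-knockout in 3 of 3, and the other 6 members went both ways. The share of all genes that went the same way in 3 of 3 was not counted, so neither is read as an effect. The spread between blood libraries was larger, with a biological coefficient of variation of 0.365 against 0.146 in bone marrow, and the intervals were wider, from -1.40 to 1.635 for Ass1 and from -1.53 to 1.21 for Slc7a7. The sign of Ass1 in this comparison rested on single libraries, with -1.04 without Atg5-knockout blood library 1, 0.81 without control blood library 1, and -0.35 without the blood libraries numbered 1. None of the 8 was past a log2 fold change of 2, the second threshold of the study, which 9 higher and 4 lower genes passed together with the adjusted p in bone marrow, and 5 higher genes in blood.

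**Figure D3:**
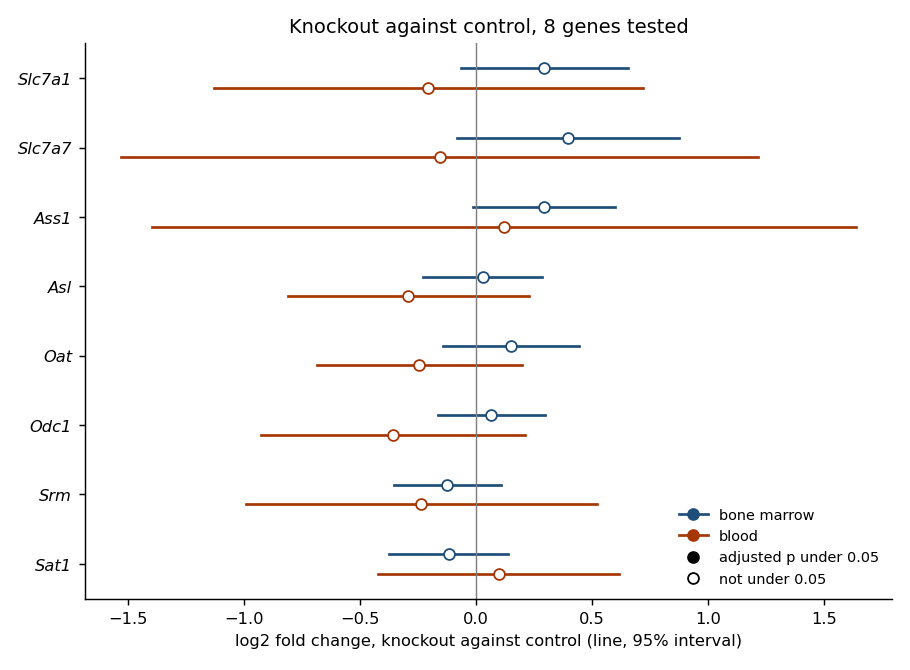
Log2 fold change of Atg5-knockout against control for the 8 genes tested, in bone marrow and in blood, with 95% intervals; filled points would mark an adjusted p under 0.05. The points lie between -0.36 and 0.40, all are open, and each interval includes 0.

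A wider list of 45 genes of arginine and polyamine metabolism was read the same way. Of the 30 tested in bone marrow and the 29 tested in blood, edgeR's test called 0 and DESeq2 0, with a median log2 fold change of 0.02 in bone marrow and 0.03 in blood. Over all tested genes edgeR's test called 0.145% higher and 0.203% lower in bone marrow, and 0.0371 and 0% in blood. At an unadjusted p under 0.05 there were 3 in bone marrow, Amd2, Smox and Oaz2, and 1 in blood, Oaz1, where 9.67 and 2.58% of all tested genes had such a p. For 14 genes there were too few reads over the 12 libraries to test. Otc and Cps1, the mitochondrial enzymes of the urea cycle, and Agmat had no count in any library, which allows at most 0.0101 CPM over the 12 libraries (3 counts of 298195480). The nitric oxide synthases Nos1, Nos2 and Nos3, which draw on the same arginine, had 12, 20 and 25 counts over the 12 libraries, all 12 of Nos1 in 1 Atg5-knockout bone marrow library. Nos2 had 6 counts in control and 0 in Atg5-knockout bone marrow, and 5 in control and 9 in Atg5-knockout blood, 7 of the 9 in 1 library.

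Whether the genotype difference was larger in one tissue was tested as the difference of the differences, blood minus bone marrow, in a fit of all 12 libraries. It was called for 0 of the 8 members. Of the 14712 genes in that fit edgeR's test called 0%, with 274 higher and 466 lower at an unadjusted p under 0.05, none of the 8 among them, and DESeq2 called 3 higher and 8 lower, again none of the 8. The members had differences between -0.59 (Slc7a7) and 0.17 (Sat1), with a median of -0.41 beside -0.04 over all genes, and each interval included 0. For Oat the difference was -0.44 (95% interval -0.97 to 0.08, adjusted p = 0.942) and for Odc1 -0.47 (-1.07 to 0.13, adjusted p = 0.942).

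The comparison of blood with bone marrow within a genotype follows the route from the tissue where eosinophils are made to the circulation. Many genes differed, and the members read against that background. In control eosinophils 1 of the 8 members was called higher and 2 lower in blood, where 16.2% of all tested genes were called higher and 18% lower. In Atg5-knockout eosinophils 1 of the 8 was called higher and 5 lower, where 23.5% of tested genes were called higher and 24.1% lower. Ass1, Srm and Sat1 were called in both genotypes in the same direction. In these bulk samples fewer cells of a type and less RNA per cell cannot be told apart. The 8 genes of proliferating precursors took 0.174 ± 0.0125% (SD, n = 3) of the counts in control and 0.217 ± 0.0238% in Atg5-knockout bone marrow against 0.0158 ± 0.00257% and 0.0170 ± 0.00390% in blood, with all 8 detected in every library. The 10 eosinophil genes took 8.42 ± 0.596% and 9.53 ± 0.787% in bone marrow against 3.09 ± 0.909% and 2.46 ± 0.573% in blood, and the 11 neutrophil genes 2.85 ± 0.537% and 2.85 ± 0.219% against 1.53 ± 0.215% and 1.55 ± 0.506%. The means of the T cell, B cell and red cell lists were higher in blood, with a wide spread between its libraries for the first and the second in both genotypes and for the third in control. The 5 T cell genes took 0.000646 ± 5.62e-05% and 0.000698 ± 7.93e-05% in bone marrow against 0.00484 ± 0.00452% and 0.00821 ± 0.00844% in blood, and the 5 B cell genes 0.0375 ± 0.000796% and 0.0383 ± 0.00163% against 0.0494 ± 0.0469% and 0.0904 ± 0.101%. The 10 red cell genes took 0.195 ± 0.0556% and 0.447 ± 0.262% against 5.52 ± 7.87% and 0.570 ± 0.155%. The 6 platelet genes took 0.0179 ± 0.00208% and 0.0212 ± 0.00220% against 0.0187 ± 0.0113% and 0.00705 ± 0.000523%, and the 11 monocyte and macrophage genes 0.364 ± 0.0389% and 0.385 ± 0.0148% against 0.335 ± 0.0173% and 0.332 ± 0.0278%. The part of these shares in the results below was not tested.

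The scaling matters for this comparison. With library size alone in place of TMM factors the median log2 fold change of all genes moved to -0.31 in control and -0.24 in Atg5-knockout, and the calls in control shifted from 2212 higher and 2466 lower to 1308 higher and 3906 lower. In Atg5-knockout they shifted from 3256 higher and 3336 lower to 2258 higher and 4333 lower. The changes of members given here are relative to the TMM scaling, under which the median of all genes lay at 0.00 and -0.01.

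Srm, the spermidine synthase (chromosome 4, 148591503 to 148594993, GRCm38, plus strand), was lower in blood in both genotypes. It had 67.2, 67.9 and 58.9 CPM in control bone marrow and 10.9, 17.5 and 22.3 CPM in control blood. In Atg5-knockout it had 63.2, 62.5 and 56.0 CPM in bone marrow and 19.1, 13.3 and 10.1 CPM in blood. All blood libraries lay below all bone marrow libraries, by a log2 fold change of -1.95 in control (95% interval -2.52 to -1.37, adjusted p = 0.000681) and -2.08 in Atg5-knockout (-2.57 to -1.58, adjusted p = 0.000111). Without blood library 1 it was -1.71 and -2.35. Odc1, the enzyme before it (chromosome 12, 17544794 to 17551505, plus strand), had 67.2, 67.5 and 59.9 CPM in control bone marrow and 64.7, 34.2 and 49.2 CPM in control blood, which overlapped (log2 fold change -0.41, adjusted p = 0.196). In Atg5-knockout Odc1 had 72.7, 72.4 and 62.9 CPM in bone marrow and 44.5, 35.4 and 34.2 CPM in blood, with no overlap (log2 fold change -0.85, adjusted p = 0.00140). The 13 pseudogenes matched to Odc1 had 245 counts together over the 12 libraries, against 17262 of Odc1, with at most 120 in 1 of them (Gm17709, 97.8% identity). Without control blood library 1, where Odc1 was highest, Odc1 was also called lower in control (log2 fold change -0.65, adjusted p = 0.0189, and 0.0189 to 0.469 over all alternatives).

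Sat1, on the breakdown side (chromosome X, 155213132 to 155216449, minus strand), went the other way. In control it had 234, 292 and 273 CPM in bone marrow and 410, 595 and 548 CPM in blood, and in Atg5-knockout 258, 230 and 263 CPM against 418, 607 and 614 CPM. The groups did not overlap in either genotype, with log2 fold changes of 0.95 (95% interval 0.52 to 1.38, adjusted p = 0.00558) and 1.14 (0.76 to 1.52, adjusted p = 0.000655). The lowest blood value in each genotype was that of library 1, without which the log2 fold change was 1.09 and 1.30. With library size alone Sat1 was still called higher, with log2 fold changes of 0.64 and 0.90.

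Ass1, the argininosuccinate synthase (chromosome 2, 31470207 to 31520672, plus strand), fell in blood in both genotypes, and its blood libraries were far apart. It had 52.0, 37.4 and 39 CPM in control bone marrow and 24.6, 9.98 and 7.31 CPM in control blood. In Atg5-knockout it had 54.2, 60.1 and 46.0 CPM in bone marrow and 31.4, 7.45 and 6.03 CPM in blood. The groups did not overlap in either genotype, and library 1 was the highest in both blood groups by more than 2 times the next. The log2 fold change was -1.63 in control (95% interval -2.56 to -0.71, adjusted p = 0.0148) and -1.81 in Atg5-knockout (-3.02 to -0.60, adjusted p = 0.0210). Without blood library 1 it was -2.31 and -2.97. The call was lost in control without blood library 2 (adjusted p = 0.0577) or bone marrow library 1 (adjusted p = 0.0599), and in Atg5-knockout without blood library 2 (adjusted p = 0.0723), bone marrow library 1 (adjusted p = 0.0585) or bone marrow library 2 (adjusted p = 0.0629). Gm5424, a processed pseudogene of Ass1 with 98.1% identity to it, had 2950 counts over the 12 libraries and was also lower in blood (log2 fold change -1.76 in control and -1.43 in Atg5-knockout, adjusted p = 0.00336 and 0.0247), and reads of both could have been divided between them, so that the values of Ass1 are uncertain to that extent. Asl, the next enzyme, lay between 29.4 and 37.1 CPM in control bone marrow and between 30.2 and 50.8 CPM in control blood, with overlap, and was not called in either genotype (log2 fold change 0.34 and 0.00). Without control blood library 1 it was called higher in control blood (log2 fold change 0.55, adjusted p = 0.0230, and 0.0230 to 0.919 over all alternatives).

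Slc7a1, the main arginine carrier of most cells outside the liver (chromosome 5, 148327410 to 148399904, minus strand), had 46.3, 27.6 and 32.4 CPM in control bone marrow and 26.5, 11.6 and 30.6 CPM in control blood, which overlapped (log2 fold change -0.64, adjusted p = 0.181). With the replicate number as a block it was called lower in control (log2 fold change -0.72, adjusted p = 0.03999, the lowest of all alternatives, which reached up to 0.469). In Atg5-knockout it fell from 38.7, 48.4 and 45.8 CPM in bone marrow to 28.8, 12.8 and 17.1 CPM in blood, with no overlap (log2 fold change -1.16, 95% interval -1.77 to -0.55, adjusted p = 0.00686). Slc7a7, the light chain of an exchanger that moves cationic amino acids out of cells, ran from 2.55 to 10.9 CPM in control blood and from 2.55 to 8.95 CPM in Atg5-knockout blood, a range wider than that of 3.04 to 5.76 CPM over the 6 bone marrow libraries. It was not called in either genotype (log2 fold change 0.65 and 0.09), and without blood library 1 its sign turned in both, to -0.09 and -0.53. Its exons share 232 bases with the antisense gene Oxa1l, 7% of them.

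Oat, at the branch to proline and glutamate (chromosome 7, 132557478 to 132576398, minus strand), had 87.9, 60.8 and 68.2 CPM in control bone marrow and 56.1, 54.1 and 74.2 CPM in control blood, which overlapped (log2 fold change -0.25, adjusted p = 0.370). In Atg5-knockout it had 83.0, 89.5 and 73.2 CPM in bone marrow and 49.5, 46.5 and 57.6 CPM in blood, with no overlap (log2 fold change -0.66, adjusted p = 0.00367). Without Atg5-knockout blood library 1 the log2 fold changes in Atg5-knockout were -0.64 for Oat, -0.98 for Odc1 and -1.56 for Slc7a1. Oat, Odc1 and Slc7a1 were called in Atg5-knockout and not in control eosinophils, but the test of the difference between the genotypes, which is the same contrast as the difference of the genotype effects above, called none of them. With library size alone all 3 were also called lower in control, with log2 fold changes of -0.56 for Oat (adjusted p = 0.0482, and 0.0482 to 0.789 over all alternatives), -0.72 for Odc1 (adjusted p = 0.0290, within the range given above) and -0.96 for Slc7a1 (adjusted p = 0.0466, likewise within its range).

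**Figure D4:**
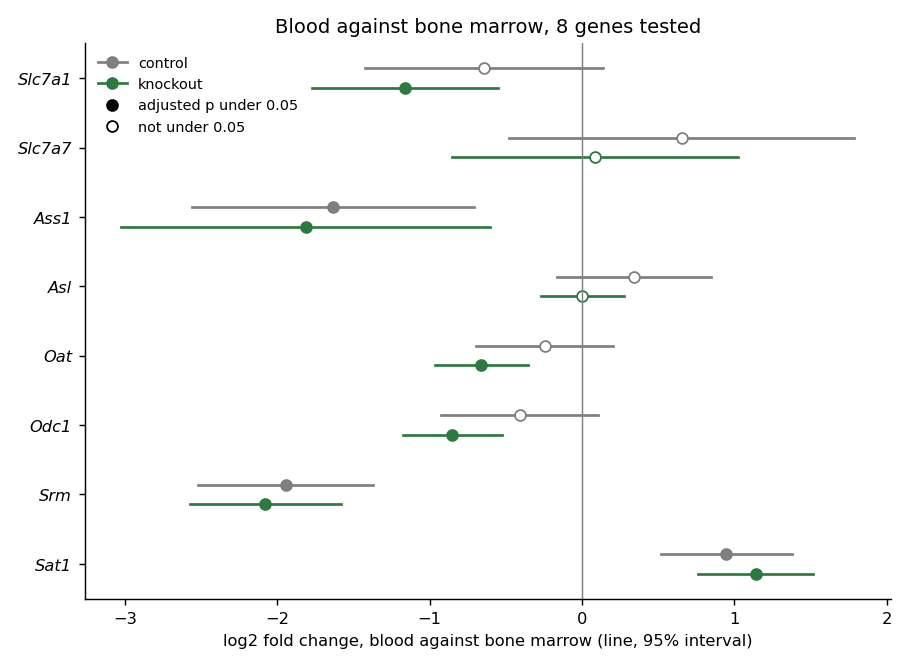
Log2 fold change of blood against bone marrow for the 8 genes tested, in control and in Atg5-knockout eosinophils, with 95% intervals and filled points for an adjusted p under 0.05. Srm (-1.95 and -2.08) and Ass1 (-1.63 and -1.81) lie to the left and Sat1 (0.95 and 1.14) to the right in both genotypes, and Oat lies at -0.25 in control and -0.66 in Atg5-knockout.

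In the wider list of 45 genes calls between tissues went both ways. In control blood 3 of the 29 tested were called higher and 10 lower, where 16.2% of all tested genes were called higher and 18% lower, with a median log2 fold change of -0.55 beside 0.00 over all genes. In Atg5-knockout blood 3 of the 31 tested were called higher and 15 lower, where the shares over all genes were 23.5 and 24.1%, with a median of -0.64 beside -0.01. Of these, 3 higher and 10 lower genes were called in both genotypes. The test of the difference between the genotypes, in the fit of all 12 libraries, called 0 of the 31 tested. A gene near the filter on low counts can pass it only through the group where it is high, the minimum being 10 counts in a library of median size. Slc25a2 in both genotypes and Slc7a2 in Atg5-knockout had 0 libraries past the minimum in their lower group, and Slc25a29 and Pycr1 had 2 of 3 in Atg5-knockout blood. Among the genes past it in every library of both groups, 2 of 28 were called higher and 10 lower in control, and 2 of 27 higher and 13 lower in Atg5-knockout. The list was written with earlier results of these data known.

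Of the genes of polyamine synthesis and its control, 5 were tested in control and 6 in Atg5-knockout, and in each genotype 3 were called lower and 1 higher in blood, beside 18 and 16.2% of all tested genes in control and 24.1 and 23.5% in Atg5-knockout. Amd1, whose product makes the aminopropyl donor for spermidine and spermine, had 54.8 ± 2.57 CPM in control bone marrow and 14.1 ± 1.55 CPM in control blood (log2 fold change -1.97, and -1.94 in Atg5-knockout). Sms, the spermine synthase, was lower by log2 fold changes of -1.14 and -0.71. Azin1, which frees ornithine decarboxylase from antizyme, had 129 ± 10.2 CPM in control bone marrow and 51.0 ± 8.31 CPM in control blood (log2 fold change -1.35, and -1.34 in Atg5-knockout). Oaz2, an antizyme that targets ornithine decarboxylase for breakdown, was higher, with 76.5 ± 1.82 CPM in control bone marrow and 156 ± 33.1 CPM in control blood (log2 fold change 1.02, and 1.19 in Atg5-knockout). Paox, an oxidase of acetylated polyamines, fell by 1.78 and 1.85 on the log2 scale, and Atp13a3, a polyamine transporter, by 0.72 and 0.79. Mtap, which salvages the methylthioadenosine left by polyamine synthesis, and Dohh, which completes hypusine on the translation factor encoded by Eif5a, were called lower in Atg5-knockout (log2 fold changes -0.64 and -0.58) and not in control (-0.71 and -0.34). For both, edgeR's test of the difference between the genotypes gave no call (0.04 for Mtap, adjusted p = 0.996, and -0.26 for Dohh, adjusted p = 0.969).

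Of the 5 genes of the proline and glutamate routes, 2 were called lower in control and 4 in Atg5-knockout blood, beside 18 and 24.1% of all tested genes. Pycr1, a reductase in the last step of proline synthesis, had 4.22 ± 0.281 CPM in control bone marrow and 0.896 ± 0.546 CPM in control blood (log2 fold change -2.26, and -2.70 in Atg5-knockout, where 1 blood library was under the minimum). Prodh, the proline dehydrogenase, had log2 fold changes of -1.28 and -1.78. Aldh18a1 and Pycr3 were called in Atg5-knockout, at -0.67 and -0.88, and had -0.36 and -0.56 in control. Here too edgeR's test of the difference between the genotypes gave no call (-0.34 for each, adjusted p = 0.942 and 0.947). Gatm, which uses arginine in the first step of creatine synthesis, had 55.4 ± 5.16 CPM in control bone marrow and 7.64 ± 1.29 CPM in control blood, the largest fall of the list among genes tested in control (log2 fold change -2.87, and -2.86 in Atg5-knockout).

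Of the genes of arginine and cationic amino acid transport, 1 of 5 tested was called higher and 1 lower in control blood, and 1 of 6 higher and 2 lower in Atg5-knockout blood. Of the urea cycle genes and ornithine carriers, 1 of 3 tested was called higher and 1 lower in each genotype. The shares over all tested genes were 16.2% higher and 18% lower in control and 23.5 and 24.1% in Atg5-knockout. Slc25a13, the aspartate and glutamate carrier of mitochondria, was lower, with log2 fold changes of -2.48 and -2.53, and so was Slc7a6, a light chain for cationic amino acids, with -1.10 and -1.31. Slc3a2, the heavy chain shared by Slc7a6 and Slc7a7, was higher, with 120 ± 13.9 CPM in control bone marrow and 199 ± 26.0 CPM in control blood (log2 fold change 0.72, and 0.52 in Atg5-knockout). Slc25a2, an ornithine carrier, had 0 to 10 counts in a bone marrow library and 18 to 55 in a blood library, and since it was tested only because of the blood libraries its call is not read as a result. Slc7a2, a cationic amino acid carrier, had 18 to 26 counts in Atg5-knockout bone marrow and 0 to 2 in Atg5-knockout blood, and was likewise tested only because of its higher group. It had 43 and 3 counts over the control groups and was not tested in control.

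**Figure D5:**
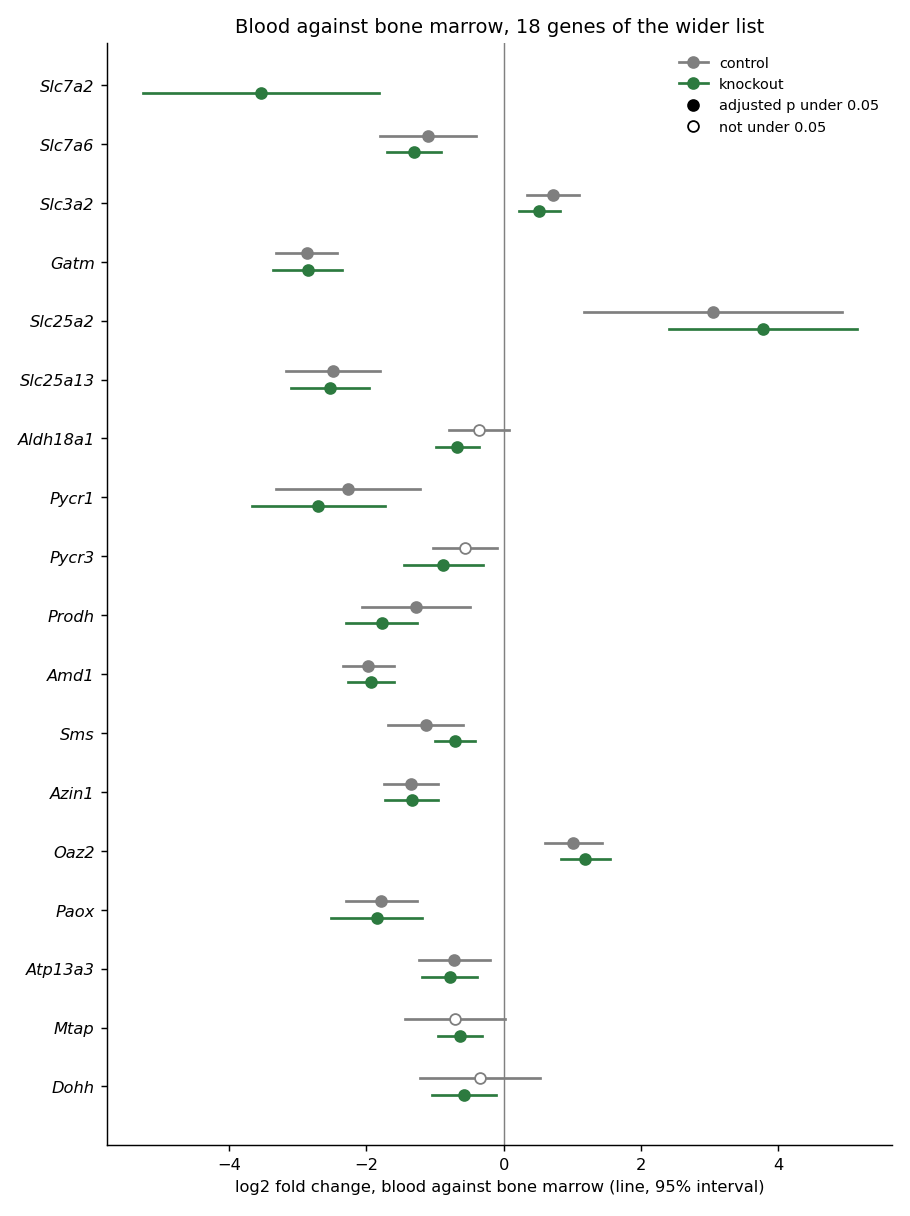
Log2 fold change of blood against bone marrow for the 18 genes of the wider list called in at least 1 genotype, in control and in Atg5-knockout eosinophils, with 95% intervals and filled points for an adjusted p under 0.05. Slc3a2, Slc25a2 and Oaz2 lie to the right of 0 in both genotypes, and the other 15 to the left in each genotype where they were tested; Slc25a2 and Slc7a2 were tested only because of their higher group.

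Promoters of the members and of the wider list were read for 2 short motifs. CACGTG is the E-box bound by MYC and its relatives and is the same on both strands. TGATGNAA is a letter form of the amino acid response element bound by ATF4 and was read on both strands. Promoter sequences from RefSeq (GRCm38.p6) were in hand for 6 of the 8 members, Ass1, Oat, Odc1, Sat1, Slc7a1 and Slc7a7, and not for Asl and Srm. In the 250 bases before the start, 6.02% of 32851 windows held CACGTG and 3.45% held TGATGNAA. Counted by gene, CACGTG was found for 4 of the 15 members and wider-list genes that were called lower in blood in either genotype and had a window, against 6.86% of all genes. It was found for 0 of 3 called higher and for 2 of 13 tested and not called, Slc25a15 and Eif5a. TGATGNAA was found for 1 of the 15 lower genes, Pycr1, for 0 of the 3 higher genes and for 1 of the 13 tested and not called, Slc7a7, against 3.91% of all genes. The matches of the lower genes are shown in 30 bases each, 5′ to 3′ on the strand of the gene, with the motif in capitals.
Ass1: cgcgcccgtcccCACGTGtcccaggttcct
Slc25a13: cacagtctgagtCACGTGtcctggcccctc
Aldh18a1: ggagggggccgcCACGTGgagcgtgggcgc
Sms: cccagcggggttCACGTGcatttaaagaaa
Pycr1: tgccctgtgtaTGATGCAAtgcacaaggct
The motif began 36 bases before the RefSeq start in Ass1 (chr2:31470222-31470251, plus strand), 125 in Slc25a13 (chr6:6217281-6217310, minus strand), 59 in Aldh18a1 (chr19:40588505-40588534, minus strand), 196 in Sms (chrX:157492466-157492495, minus strand) and 103 in Pycr1 (chr11:120643833-120643862, minus strand). The Ass1 match lies within the span that the count table gives to Ass1, which starts at 31470207. A match describes the sequence only, and binding was not measured.

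For each member the gene most like it over the 12 libraries was named by the Pearson correlation of log2 CPM, as a description without a test, since these libraries share groups. Ass1 was closest to Cad (0.987), the enzyme that starts pyrimidine synthesis, Srm to Mrm2 (0.993), a methyltransferase of mitochondrial ribosomal RNA, and Sat1 to Trem5 (0.996). Asl was closest to Ten1 (0.941), Oat to Ddx23 (0.953), Odc1 to Eml4 (0.975), Slc7a1 to Gm10052 (0.969) and Slc7a7 to Plxnb2 (0.960).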

How the data were processed

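RNA of purified eosinophils was sequenced by the authors as stranded mRNA libraries, with single-end reads. The submitters' processing notes name HISAT2 2.2.1, featureCounts, R 4.1.0 and DESeq2 1.32.0, with the builds mm10 and GRCm39. Per the file headers, featureCounts 2.0.1 was run with Ensembl release 92 on GRCm38, with an option for paired ends and none for strand or for reads in several genes. The authors deposited raw counts per gene, with the exon length, for 53801 genes and 12 libraries, and coordinates are those of the table. Every column of library values was used.

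Symbols came from GENCODE M39 (49674 matched). Each comparison was fitted on its own libraries with edgeR 4.0.16 in R 4.3.3 (TMM, quasi-likelihood test, filterByExpr with minimum count 10 and minimum total count 15, Benjamini-Hochberg over all tested genes, called at 0.05), after the script was tested on simulated data. The simulated spread was the same in every comparison and smaller than that of each comparison with blood libraries, and no outlying library was simulated. SDs are over 3 libraries. Intervals of counts hold for counting error alone, because no molecular identifiers mark duplicate reads. The design text names 3 mice of each genotype, but no source ties a replicate number to a mouse. Pseudogenes were matched by BLAST 2.17.0 (identity from 90%, covering 50% or more of the pseudogene).

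Members and lists were chosen with earlier results of these data known. The rule gave 10 members, of which 2 are not reported here, like some genes of the wider list. Named are the other 8, genes of the wider list called in any comparison, overlapping genes, the pseudogene with the most counts for Ass1 and for Odc1, and the most correlated gene of each. Genes named outside this rule, Otc, Cps1, Agmat, Nos1 to Nos3, Amd2, Smox, Oaz1, Slc25a15, Slc25a29 and Eif5a, were chosen after their values were seen, and Atg5 was named as a check. Deviations from the group mean correlated between same-numbered Atg5-knockout and control blood libraries (0.50, 0.21 and 0.30). Differently numbered libraries were not set against each other in this way, so a pairing by number is not established. The sources do not say what the numbers share. Alternatives were DESeq2 1.42.0, RLE factors, library size alone, no filter, all 12 libraries in the fit, the replicate block and leaving out each library. The blood libraries numbered 1 were left out together after the data were seen.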

Additional observations from a re-analysis of the deposited data

How the results depend on the processing

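Between genotypes 0 of the 8 members were called in either tissue under the alternatives run, and likewise 0 in the difference of the genotype effects. In control, 3 members were called between the tissues, 6 with library size alone, and 2 to 5 with a library left out (5 without control blood library 1, 2 without control blood library 2 or control bone marrow library 1). The share of all genes moved too, from 16.2% higher and 18% lower to 9.57 and 28.6% with library size alone, 19.9 and 22.1% without control blood library 1, 14.3 and 15.3% without control blood library 2 and 9.87 and 11.5% without control bone marrow library 1. In Atg5-knockout the count was 6, and 5 to 6 with a library left out (5 without blood library 2, bone marrow library 1 or bone marrow library 2), where the shares of all genes went from 23.5 and 24.1% to 20.3 and 21.4%, 16.3 and 17.7%, and 15.5 and 16.4%. The replicate block gave 0 calls between genotypes in each tissue and 4 and 6 between tissues, where the added call was Slc7a1 in control and the shares of all genes were 16.6 and 19.3% in control and 20.2 and 22.5% in Atg5-knockout. Same-numbered libraries correlated from -0.15 to 0.0041 between genotypes in bone marrow and from -0.11 to 0.13 between tissues, and no pairing was read from these values. Whether same-numbered blood and bone marrow libraries share a mouse is not known.

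Signs that turned belonged to values that were not called. With a library left out the log2 fold change between genotypes ran from -0.071 to 0.11 for Asl in bone marrow, and in blood from -1.04 to 0.81 for Ass1, -0.60 to 0.064 for Slc7a1, -0.78 to 0.60 for Slc7a7, -0.52 to 0.013 for Srm and -0.046 to 0.25 for Sat1. Between tissues it ran from -0.093 to 1.03 for Slc7a7 in control, and from -0.044 to 0.041 for Asl and -0.53 to 0.41 for Slc7a7 in Atg5-knockout. The difference of the effects ran from -1.33 to 0.47 for Ass1, -1.17 to 0.15 for Slc7a7 and -0.41 to 0.083 for Srm. Library size alone gave -0.23 for Asl and -0.10 for Slc7a7 between tissues in Atg5-knockout. Asl there had -0.061 without the filter, -0.012 in the 12-library fit and -0.0023 with DESeq2, and Slc7a7 had -0.082 with the replicate block. Ass1 between genotypes in blood had -0.084 with the replicate block and -0.35 without the blood libraries numbered 1. Of 536 values of single genes under the alternatives, 494 kept direction and side of the threshold. The cause of these changes was not tested.

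The counts over all genes moved more. In bone marrow 20 higher and 28 lower genes became 161 and 259 without the filter, 59 and 133 with DESeq2, 7 and 5 in the 12-library fit and 11 and 12 with the replicate block, and 9 to 79 and 9 to 140 with a library left out (79 and 140 without control bone marrow library 1). In blood 5 and 0 became 18 and 59, 15 and 8, 12 and 4, and 7 and 3, and 2 to 5 and 0 to 1 with a library left out. Between tissues, leaving out a library gave 1163 to 2808 and 1464 to 3118 in control and 2228 to 3684 and 2356 to 4072 in Atg5-knockout. The difference of the effects gave 16 higher and 103 lower genes without the filter. At this depth 14 genes of the wider list stayed under the filter and were not tested.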

Other observations

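Some genes of the wider list had values that belong to no call. Amd2, Oaz1 and Smox were chosen after their values were seen, and the share of all genes without overlap between genotypes was not counted. In bone marrow the genotypes of Pycr1 and Oaz2 did not overlap either, and neither gene was called. Amd2, a second locus for the enzyme encoded by Amd1, had 12 to 18 counts in a control bone marrow library and 24 to 58 in an Atg5-knockout one, with no overlap. Its log2 fold change there was 1.59 with a standard error of 0.40, and edgeR's test gave an adjusted p of 0.167. Reads of Amd1 and Amd2 could have been divided between them. In blood it had 0 to 8 and 10 to 17 counts and was not tested in that comparison. Oaz1, the most abundant antizyme gene here, had 477 to 512 CPM in control and 337 to 382 CPM in Atg5-knockout blood libraries, again without overlap (log2 fold change -0.43 with a standard error of 0.16, unadjusted p = 0.0289, adjusted p = 1). In bone marrow the groups of Oaz1 overlapped, at 380 to 439 and 382 to 433 CPM. Smox, the spermine oxidase, had 87.1 CPM in control blood library 1, the library with 14.6% of its counts on red cell genes, and 5.26 to 20.7 CPM in the other 5 blood libraries. Its bone marrow libraries had 5.87 to 7.025 CPM in control and 8.10 to 12.3 CPM in Atg5-knockout, without overlap. The log2 fold change there was 0.56 with a standard error of 0.18, and edgeR's test gave an adjusted p of 0.321.

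Eif5a, whose product is the protein that carries hypusine, was the most abundant gene of the wider list, with means between 853 and 929 CPM in the 4 groups. Its log2 fold changes between tissues were -0.09 in control and 0.07 in Atg5-knockout, with 95% intervals from -0.59 to 0.41 and from -0.23 to 0.38, beside falls of Srm by 1.95 and 2.08 on the log2 scale.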
